A study of Mus musculus with 6 samples.

Results

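The genes described here encode the enzymes with which cells oxidise, hydrolyse and conjugate foreign compounds, steroids, bile acids and retinoids. Members were taken by gene symbol from the deposited expression table, as the cytochromes P450 (Cyp), UDP-glucuronosyltransferases (Ugt), sulfotransferases (Sult), glutathione S-transferases (Gst and Mgst), aldehyde and alcohol dehydrogenases (Aldh and Adh), flavin monooxygenases (Fmo), carboxylesterases (Ces), epoxide hydrolases (Ephx) and quinone reductases (Nqo). This gave 184 of 25302 rows, with 83 Cyp, 16 Ugt, 9 Sult, 23 Gst, 3 Mgst, 20 Aldh, 6 Adh, 5 Fmo, 13 Ces, 4 Ephx and 2 Nqo genes. The rule on symbols used no measured value, but it and the gene lists below were set with earlier results of these data known.

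The samples were bulk RNA of mouse biliary epithelial cells from inside the liver, where these cells line the bile ducts. The 3 Control samples had the genotype Sox9fl/fl, meaning that both alleles of the transcription factor gene Sox9 were flanked by loxP sites. The 3 Sox9cKO samples had the genotype Sox9fl/fl:AlbCre+/-, in which the same floxed alleles are combined with a Cre recombinase transgene under the albumin promoter, which is active in the liver epithelium and not in biliary cells alone. Control samples thus carried the floxed alleles too, and their label names no Cre. The labels give no age, and do not say whether each sample came from its own animal, so p-values measure the spread between these samples.

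Values are normalized read counts, that is, reads per gene divided by a size factor of the library. The 6 libraries held between 11883496 and 16191990 reads. Sox9 itself lay between 6043 and 6293 in Control and between 3165 and 3363 in Sox9cKO, so that Sox9cKO kept 53.2% of the Control level on average and the direction followed the labels in every library. All 15 listed biliary markers were detected, with summed values of 105603 to 147644 in Control and 92181 to 121997 in Sox9cKO. Among all 17153 genes with a mean of at least 10, limma called 510 at a Benjamini-Hochberg adjusted p under 0.05. The libraries also differed in sex-linked transcripts. Xist was between 27852 and 32279 in Control replicates 1 and 3 and Sox9cKO replicate 1, and between 6.50 and 10.2 in the other 3 libraries, which alone had Ddx3y above 0. Each group therefore held both kinds of library in unequal numbers, and results that lose their call with this difference as a term of the fit are named below.

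Enzymes of this kind work in sequence. Phase I enzymes (P450s, flavin monooxygenases, esterases, dehydrogenases, epoxide hydrolases) expose or form a reactive group, and phase II enzymes (Ugt, Sult, Gst) attach glucuronic acid, sulfate or glutathione, which makes the product easier to export into bile or blood. The textbook site of most of them is the hepatocyte, and cholangiocytes meet their products in bile. Retinoids pass through related steps: alcohol dehydrogenases oxidise retinol to retinaldehyde, Aldh1a enzymes form retinoic acid, and Cyp26 enzymes degrade it.

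Of the 184 members, 123 reached the mean of 10 and were tested, and 61 did not. The untested members had means of 1.61 to 9.69, and the highest value of any of them in a single library was 23.9. Of the tested members, 13 (10.6%) were called, 9 higher and 4 lower in Sox9cKO. Over all tested genes 2.97% were called, 2.03% higher and 0.939% lower. With the replicate number as a block in the limma fit, 24 members were called, 20 higher and 4 lower, against 8.05% of all genes. With edgeR on the reads 12 were called, against 2.86% of all genes. All 13 were among the 24 of the block fit. Log2 fold changes (on the log2(value + 1) scale, which understates the change of genes with few reads) were above 0 for 91 of 123 members (74.0%) and for 54.2% of all genes. Their median was 0.42, against 0.036 for all genes. The 3 Sox9cKO values lay apart from the 3 Control values for 41 members (33.3%), 36 higher and 5 lower, against 24.2% of all genes, 13.4% higher and 10.8% lower.

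**Figure D1:**
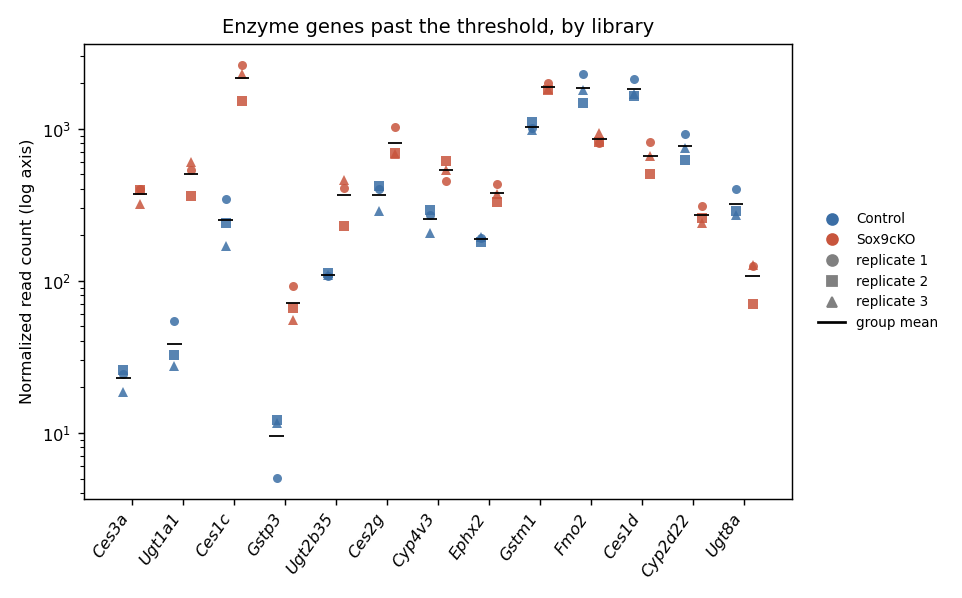
Normalized counts (log10 axis) of the 13 called members in each of the 6 libraries, with Control in blue and Sox9cKO in red side by side, replicates by marker shape, and short lines at the group means. For each of the 13 genes the points of the groups do not overlap; Ces1d, Cyp2d22, Fmo2 and Ugt8a are the members that were lower in Sox9cKO.

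The families contributed unequally. Carboxylesterases had 4 of 9 tested members called and a median log2 fold change of 1.87, and glucuronosyltransferases had 3 of 12 called with a median of 1.16. P450s, the most numerous family, had 2 of 41 called and a median of 0.15. Glutathione S-transferases had 2 of 21 called, with a median of 0.65 and 18 estimates above 0. Flavin monooxygenases (4 tested) and epoxide hydrolases (4 tested) had 1 called each. None of the 19 aldehyde dehydrogenases, 6 sulfotransferases, 3 alcohol dehydrogenases, 2 microsomal glutathione S-transferases or 2 quinone reductases was called with limma. At an unadjusted p under 0.05 there were 4 aldehyde dehydrogenases and 3 sulfotransferases, and none of the other families just named. With the block 1 aldehyde dehydrogenase and 1 sulfotransferase were called, and with edgeR none.

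**Figure D2:**
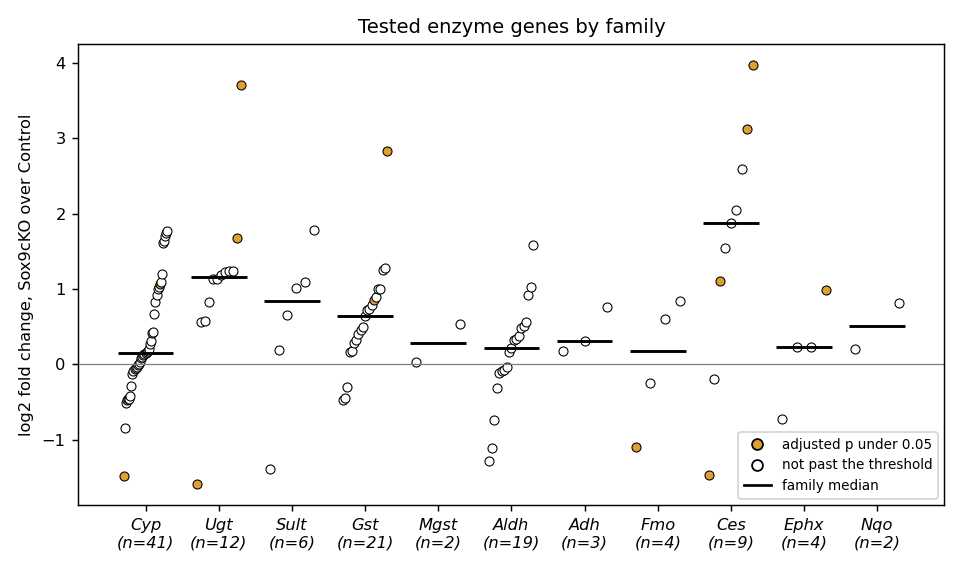
Log2 fold changes (Sox9cKO against Control) of the 123 tested members by enzyme family, one point per gene, with called members filled and the family median as a line. Carboxylesterases and glucuronosyltransferases have the highest medians (1.87 and 1.16) among families with 3 or more tested genes, while most P450s lie near 0.

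Carboxylesterases hydrolyse ester and amide bonds of drugs and lipids. Ces3a (ENSMUSG00000069922), an esterase abundant in hepatocytes, had normalized counts of 24.4, 26.0 and 18.4 in Control and 402, 393 and 322 in Sox9cKO. Every Sox9cKO library was thus more than 10 times above every Control library. The group means were 22.9 ± 3.98 and 372 ± 44.1 (SD, n = 3), with a log2 fold change of 3.97 and a standard error of 0.21 (limma, adjusted p 0.00114). Ces1c (ENSMUSG00000057400), which encodes the secreted carboxylesterase of mouse plasma, had 345, 239 and 169 in Control and 2635, 1526 and 2299 in Sox9cKO. It rose by 3.12 on the log2 scale (SE 0.30, limma, adjusted p 0.00404), and its lowest Sox9cKO value was still several times its highest Control value. Of the 50-base stretches of the longest transcript in GENCODE M21, 69.1% for Ces3a and 83.0% for Ces1c occur in no other gene. The assignment of some reads to these 2 genes is therefore uncertain.

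Ces1d (ENSMUSG00000056973), an esterase known as a triacylglycerol hydrolase, went the other way. Its normalized counts were 2117, 1629 and 1696 in Control and 823, 501 and 665 in Sox9cKO. The groups did not overlap, and the gene fell by 1.47 on the log2 scale (SE 0.20, limma, adjusted p 0.0122). Per kilobase of exon, Ces1d ranked 1 among the 123 tested members in Control and 18 in Sox9cKO, while Ces1c ranked 27 and 2. The ratio of Ces1c to Ces1d per kilobase, chosen after the values were seen, was 0.166, 0.150 and 0.102 in Control and 3.27, 3.11 and 3.53 in Sox9cKO. The more abundant transcript of the pair was therefore Ces1d in all 3 Control libraries and Ces1c in all 3 Sox9cKO libraries.

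Both genes lie next to each other in a tandem cluster of 8 Ces1 genes on mouse chromosome 8, in RefSeq order, and a second cluster on the same chromosome holds 10 Ces2 and Ces3 genes. The table listed 6 and 7 of them. In the Ces1 cluster, Ces1g had 11.8, 16.7 and 24.2 in Control and 72.6, 34.0 and 54.3 in Sox9cKO, apart between the groups but not called (log2 fold change 1.55, limma, adjusted p 0.0980). Ces1f varied more within Sox9cKO (171, 7.56 and 7.92) than between the groups. In the second cluster, Ces2g rose with Ces3a, from 402, 417 and 288 to 1026, 691 and 683 (log2 fold change 1.11, SE 0.22, limma, adjusted p 0.0464). That call was lost with edgeR (adjusted p 0.0524) and in each of the 6 fits that left out 1 library (limma, adjusted p up to 0.138), so it is the least stable of the 13. Ces2f had 7.57, 2.78 and 13.8 in Control and 36.8, 18.0 and 31.7 in Sox9cKO, and was called with the block (limma, adjusted p 0.0387) but not without it (0.148).

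**Figure D3:**
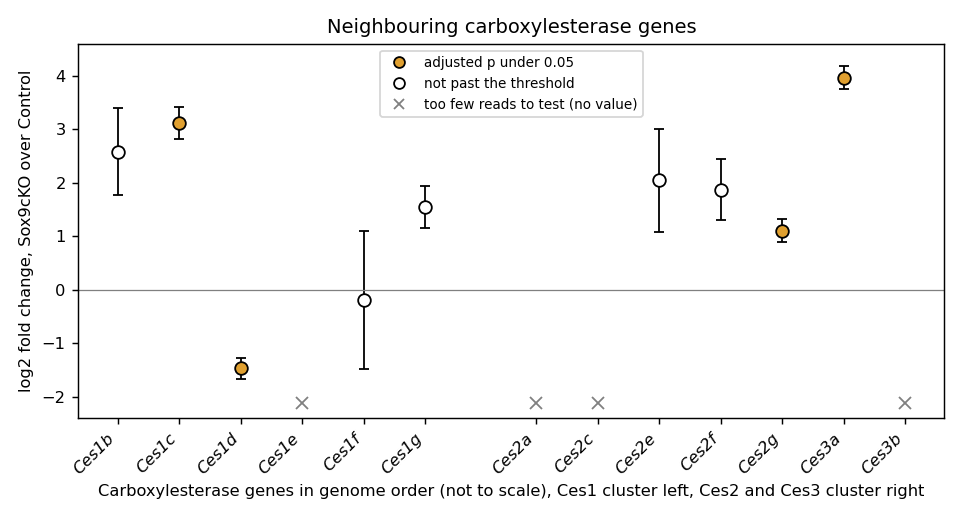
Log2 fold changes with standard errors of the carboxylesterase genes in their order along chromosome 8, in the Ces1 cluster and the Ces2 and Ces3 cluster. Ces1c (3.12) and Ces1d (-1.47) are neighbours with opposite signs; crosses at the lower edge mark genes with too few reads to test.

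Glucuronosyltransferases attach glucuronic acid. Ugt1a1 (ENSMUSG00000089960), the enzyme that conjugates bilirubin, had normalized counts of 54.6, 32.5 and 27.7 in Control and 532, 362 and 605 in Sox9cKO. It rose by 3.70 on the log2 scale (SE 0.31, limma, adjusted p 0.00319), with no overlap between the groups. Ugt1a genes share their last exons and differ in the first, and 41.8% of the 50-base stretches of Ugt1a1 transcripts in GENCODE M21 occur in no other gene, so the split of reads among Ugt1a rows is uncertain. The sum over the 7 Ugt1a rows depends less on that split. It was 345, 314 and 399 in Control and 1651, 711 and 1534 in Sox9cKO, and Ugt1a1 took 15.8%, 10.4% and 6.94% of it in Control and 32.2%, 50.9% and 39.4% in Sox9cKO. Both the sum and the share were higher in all 3 Sox9cKO libraries.

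Ugt2b35 (ENSMUSG00000035811), of the steroid- and drug-conjugating Ugt2 subfamily, had 108, 112 and 108 in Control and 407, 230 and 460 in Sox9cKO (log2 fold change 1.67, SE 0.27, limma, adjusted p 0.0211). Ugt2b34, the most abundant glucuronosyltransferase per kilobase of exon, had normalized counts of 791, 697 and 662 in Control and 2169, 1001 and 1774 in Sox9cKO. It was called with the block (limma, adjusted p 0.0195) but not without it (0.0841). All 6 tested Ugt1a and all 5 tested Ugt2 genes had log2 fold changes above 0. Ugt8a (ENSMUSG00000032854), which transfers galactose to ceramide in the synthesis of sphingolipids and not glucuronic acid to drugs, was the exception in the family. Its values were 399, 286 and 270 in Control and 124, 69.9 and 127 in Sox9cKO, a fall by 1.59 on the log2 scale (SE 0.28, limma, adjusted p 0.0313). Of the 12 tested glucuronosyltransferases it alone had an estimate below 0.

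To show the sequence upstream of members that moved in opposite directions, the 250 bases before the annotated start are given for Ugt1a1 and Ces1c, which rose, and for Ugt8a and Fmo2, which fell. They are RefSeq sequences on build GRCm38.p6, 5′ to 3′ on the gene's strand, and capitals mark any match on either strand to one of 5 core motifs.
Ugt1a1 (chr1:88211709-88211958, plus strand): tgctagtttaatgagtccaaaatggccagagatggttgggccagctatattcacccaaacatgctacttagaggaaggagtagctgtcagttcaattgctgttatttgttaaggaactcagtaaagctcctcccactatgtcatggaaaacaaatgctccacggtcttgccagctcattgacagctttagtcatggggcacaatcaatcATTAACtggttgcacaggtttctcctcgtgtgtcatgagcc
Ces1c (chr8:93131284-93131533, minus strand): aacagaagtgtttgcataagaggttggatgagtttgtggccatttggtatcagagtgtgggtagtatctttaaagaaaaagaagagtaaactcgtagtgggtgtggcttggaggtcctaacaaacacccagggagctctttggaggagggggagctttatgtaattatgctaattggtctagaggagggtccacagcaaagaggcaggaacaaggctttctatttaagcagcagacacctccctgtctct
Ugt8a (chr3:125938653-125938902, minus strand): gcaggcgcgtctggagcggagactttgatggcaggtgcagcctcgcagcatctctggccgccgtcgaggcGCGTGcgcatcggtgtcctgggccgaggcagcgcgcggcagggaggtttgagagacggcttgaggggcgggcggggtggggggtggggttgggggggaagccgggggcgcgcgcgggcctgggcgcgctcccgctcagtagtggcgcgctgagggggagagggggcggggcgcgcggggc
Fmo2 (chr1:162898759-162899008, minus strand): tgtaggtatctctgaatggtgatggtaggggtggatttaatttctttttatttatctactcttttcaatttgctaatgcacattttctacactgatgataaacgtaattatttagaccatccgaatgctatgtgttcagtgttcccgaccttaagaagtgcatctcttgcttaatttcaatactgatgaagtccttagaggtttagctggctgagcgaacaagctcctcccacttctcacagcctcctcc
The motifs searched were AACAAT (Sox proteins), GTTAAT (a part of the HNF1 site), TGACNNNGC (antioxidant response element), GCGTG (AHR) and AGGTCA (nuclear receptors). In Ugt1a1 the capitals are GTTAAT on the opposite strand, 41 bases before the start, and in Ugt8a they are GCGTG, 180 bases before the start. The windows of Ces1c and Fmo2 held none of the 5. Among the 9 called members with a window, AACAAT and TGACNNNGC occurred in 0, against 9.42% and 10.2% of all 32851 windows of this length. GCGTG occurred in 4 (28.2% of all windows), GTTAAT in 1 (6.43%) and AGGTCA in 1 (14.0%). A match is only a description of the letters.

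P450s are the main oxidising enzymes. Cyp2d22 (ENSMUSG00000061740), of the drug-oxidising Cyp2d subfamily, had 924, 625 and 745 in Control and 310, 260 and 241 in Sox9cKO. It fell by 1.49 on the log2 scale (SE 0.18, limma, adjusted p 0.00779), and its highest Sox9cKO value was below its lowest Control value by more than the range within Sox9cKO. Its relative Cyp2d26 had 19.3, 15.8 and 15.0 in Control and 77.6, 34.0 and 72.5 in Sox9cKO, and passed in limma with the block but not without it (adjusted p 0.0255 against 0.0602). Cyp4v3 (ENSMUSG00000079057), a fatty acid hydroxylase, rose from 269, 290 and 205 to 451, 610 and 537 (log2 fold change 1.07, SE 0.19, limma, adjusted p 0.0304). Cyp2c23 and Cyp2c55, which act on fatty acids such as arachidonic acid, were also apart between the groups at low counts. Cyp2c23 had 11.8, 13.0 and 8.06 in Control and 29.8, 32.1 and 46.4 in Sox9cKO, and Cyp2c55 had 5.04, 4.64 and 6.91 and then 19.9, 17.0 and 23.8. Their adjusted p-values with limma were 0.0553 and 0.0606, and 0.0457 and 0.0433 with the block.

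The P450s of bile acid and sterol metabolism were not called with limma or edgeR. Of 7 listed genes present, 6 were tested, with a median log2 fold change of 0.070 and 1 unadjusted p under 0.05. Cyp51, which demethylates lanosterol in cholesterol synthesis, was the most abundant P450 per kilobase of exon, with normalized counts of 2722, 2015 and 3054 in Control and 3062, 2538 and 2810 in Sox9cKO. Those ranges overlapped (log2 fold change 0.13, SE 0.17). Cyp7b1, an oxysterol hydroxylase, had 15.1, 26.9 and 9.22 in Control and 30.8, 66.2 and 60.0 in Sox9cKO (log2 fold change 1.61, limma, adjusted p 0.133). Cyp39a1, another oxysterol hydroxylase, had a mean of 262 ± 24.4 in Control and 266 ± 48.3 in Sox9cKO (SD, n = 3). Cyp27a1, the mitochondrial sterol hydroxylase, and Cyp2c70, which forms the muricholic acids of mouse bile, had log2 fold changes of 0.43 and -0.84 with overlapping ranges. For Cyp46a1, the cholesterol hydroxylase of brain, it was -0.51 at an adjusted p of 0.507 with limma.

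Among conjugating enzymes of the glutathione pathway, Gstm1 (ENSMUSG00000058135), a mu-class transferase, had 1004, 1108 and 983 in Control and 1993, 1801 and 1819 in Sox9cKO. The spread within each group was small beside the difference, with means of 1032 ± 67.0 and 1871 ± 106 (SD, n = 3) and a log2 fold change of 0.86 (SE 0.11; limma, adjusted p 0.00898). Per kilobase of exon it ranked 2 among the tested members in Control and 1 in Sox9cKO. Gstp3 (ENSMUSG00000058216), of the pi class, rose from 5.04, 12.1 and 11.5 to 92.5, 66.2 and 55.5 (log2 fold change 2.83, SE 0.40, limma, adjusted p 0.0137). Gstm2, Gstm5 and Gstt2, chosen after their values were seen, had log2 fold changes of 0.998, 0.89 and 0.79 and passed in limma with the block but not without it. All 4 tested Gstp and 7 of 8 tested Gstm genes had estimates above 0. Mgst1, the microsomal transferase, stayed within 819 to 1242 in both groups (log2 fold change 0.04, SE 0.21).

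Ephx2 (ENSMUSG00000022040), the soluble epoxide hydrolase that hydrolyses fatty acid epoxides, had 192, 181 and 192 in Control and 433, 327 and 371 in Sox9cKO. It rose by 0.99 on the log2 scale (SE 0.15, limma, adjusted p 0.0192). Ephx1, the microsomal epoxide hydrolase that acts on foreign compounds, had 1323, 950 and 985 in Control and 1386, 1204 and 1209 in Sox9cKO, with overlapping ranges (log2 fold change 0.23, limma, adjusted p 0.497). Fmo2 (ENSMUSG00000040170), a flavin monooxygenase that oxidises nitrogen and sulfur in drugs, had 2282, 1478 and 1789 in Control and 809, 816 and 929 in Sox9cKO. It fell by 1.10 on the log2 scale (SE 0.17, limma, adjusted p 0.0200), and Fmo2 ranked 8 per kilobase among tested members in Control and 30 in Sox9cKO. Among the sulfotransferases, Sult1a1, which sulfates phenols, had 762, 511 and 569 in Control and 2062, 756 and 1168 in Sox9cKO. Its lowest Sox9cKO value lay just below its highest Control value, and limma called it with the block but not without it (adjusted p 0.0188 against 0.193).

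No member of the retinoid list was called: 9 of its 13 genes were tested, 5 with estimates above 0, and 2 had an unadjusted p under 0.05 (edgeR called 0). Aldh1a2, which forms retinoic acid, had normalized counts of 540, 263 and 581 in Control and 1808, 1205 and 1011 in Sox9cKO. The groups were apart, at a log2 fold change of 1.58 (SE 0.34, adjusted p 0.0620 with limma). It passed with the block (0.0143) and with the Xist term (0.00929), so its call depends on the fit. Aldh1a1, which catalyses the same step, had 3074, 1666 and 2164 in Control and 1709, 1554 and 2178 in Sox9cKO, with overlapping ranges (log2 fold change -0.31, limma, adjusted p 0.559). Per kilobase of exon, the ratio of Aldh1a2 to Aldh1a1, chosen after the values were seen, was 0.383, 0.344 and 0.585 in Control and 2.31, 1.69 and 1.01 in Sox9cKO. Aldh1a1 was thus the more abundant of the pair in every Control library, and Aldh1a2 in every Sox9cKO library, narrowly so in replicate 3. For Aldh1a7 the log2 fold change was -0.74 at an adjusted p of 0.465 with limma.

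**Figure D4:**
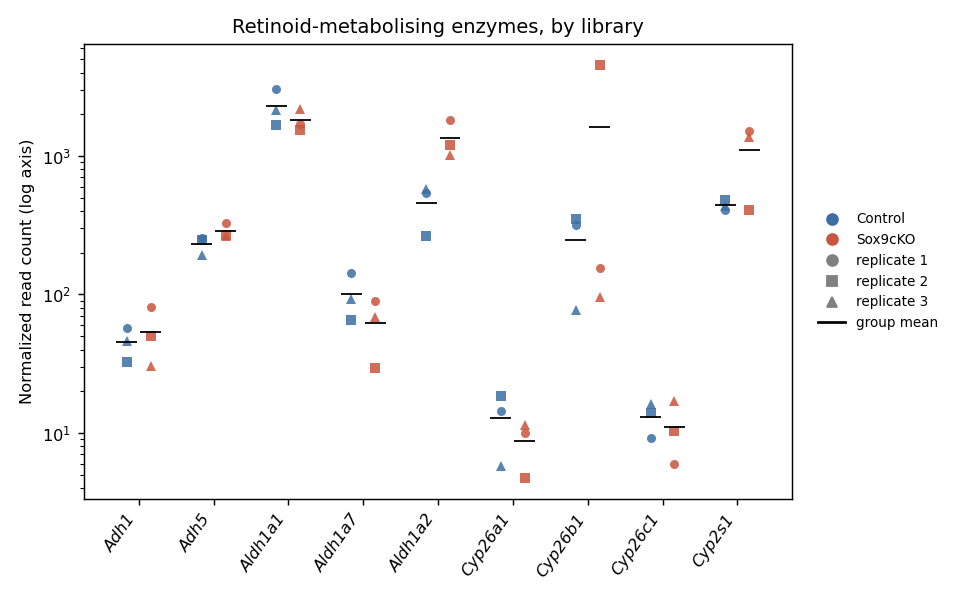
Normalized counts (log10 axis) of the 9 tested members of the retinoid list in each library, Control in blue and Sox9cKO in red, with lines at the group means. Aldh1a2 is separated between the groups, Aldh1a1 overlaps, and a single Sox9cKO library (replicate 2, 4571) stands far above the others for Cyp26b1.

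On the degrading side, Cyp26b1 had 315, 350 and 77.2 in Control and 154, 4571 and 96.2 in Sox9cKO. Its higher Sox9cKO mean rests on replicate 2 alone, and the log2 fold change of 0.997 (SE 1.40, limma, adjusted p 0.767) turned to -0.74 without that library. Cyp26a1 and Cyp26c1 stayed at or below 18.6 in every library. Cyp2s1, a P450 that also accepts retinoic acid, had 408, 484 and 433 in Control and 1522, 407 and 1361 in Sox9cKO. Here replicate 2 was the low one, and Cyp2s1 was called without it (log2 fold change 1.71, limma, adjusted p 0.00882) but not with it (1.10 and 0.280). Adh1 and Adh5, which oxidise retinol or formaldehyde, had log2 fold changes of 0.17 and 0.31 (limma, adjusted p 0.869 and 0.402). Outside the enzyme families, 1 of 22 tested genes of retinoid handling was called: Rbp4, the retinol carrier of plasma, rose from 182, 109 and 91.0 to 721, 511 and 568 (log2 fold change 2.28, limma, adjusted p 0.00736). With the block 5 were called, all higher: Rbp4, Tgm2, Rarres2, Fabp5 and Rarb. Over all tested genes 2.97% were called, and 8.05% with the block.

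Textbook targets of the xenobiotic receptors AHR, PXR and CAR and of NRF2 were listed separately. Of 16 genes in the table, 12 were tested, 11 had estimates above 0, the median was 0.84, and 2 were called (Ugt1a1 and Gstm1). Over all tested genes 54.2% of estimates were above 0 and 2.97% were called. The groups were apart for 7 of the 12, all higher (58.3%, against 24.2% of all genes in either direction). Cyp1a2, Cyp3a11 and Nqo1, used as read-outs of AHR, PXR and NRF2, were not called, at low counts. Cyp1a2 (AHR) had means of 14.1 ± 5.92 and 14.4 ± 2.88, and Cyp3a11 (PXR) had 56.3 ± 9.78 and 60.6 ± 33.4 in Control and Sox9cKO (SD, n = 3). Nqo1 (NRF2) had 10.1, 22.3 and 27.7 in Control and 34.8, 32.1 and 32.8 in Sox9cKO, apart between the groups but not called (limma, adjusted p 0.351). Cyp1a1 and Cyp2b10 did not reach the mean of 10. Gsta4, which conjugates lipid aldehydes, and Cyp3a13 had log2 fold changes of 1.25 and 0.93 (limma, adjusted p 0.149 and 0.191), and Sox9cKO replicate 2 was the low library of its group in both. Of the sensors and their partners, 0 of 12 tested genes were called with limma or edgeR, and 2 had an unadjusted p under 0.05. Hnf4a, a factor of liver epithelium and the 1 gene of that list called with the block (limma, adjusted p 0.0170 against 0.131), had 5329, 3802 and 6320 in Control and 10056, 6994 and 8629 in Sox9cKO.

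Genes that supply cofactors or act beside the members were listed too. Of 14 tested electron donors and cofactor enzymes, 1 was called (3 with the block, all higher): Gsr, glutathione reductase, rose from 739 ± 25.5 to 1178 ± 84.6 (SD, n = 3; log2 difference 0.67, limma, adjusted p 0.0250). For Por, which passes electrons to microsomal P450s, the log2 fold change was 0.34 at an adjusted p of 0.369 with limma. Of 20 other conjugating and reducing enzymes, 2 were called (4 with the block, all higher) and 19 had estimates above 0. Beside both lists, the shares over all tested genes were 2.97% called, 8.05% called with the block and 54.2% with estimates above 0. Srxn1, sulfiredoxin, rose from 821 ± 90.9 to 1995 ± 559, and Akr1b7, an aldo-keto reductase, from 81.9 ± 11.4 to 406 ± 244 (SD, n = 3; log2 fold changes 1.25 and 2.12, limma, adjusted p 0.0222 and 0.0499).

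Markers of hepatocytes moved with the groups. Of 19 listed markers present, 18 were tested and 7 called, all higher, among them Hp, Fgb and Hpx, which encode plasma proteins. With the block 8 were called higher. Summed values of the markers were 24559 to 37438 in Control and 53256 to 80661 in Sox9cKO. Alb and Apob made up most of the sums, with means of 21337 and 2712 in Control and 29636 and 22111 in Sox9cKO. Of the 18 estimates, 14 were above 0 and 4 below. Alb, albumin, was not called (log2 fold change 0.47, limma, adjusted p 0.380), and Otc was at 0 in 1 Control library and at most 12.9 elsewhere. The part of hepatocyte RNA in the members' results was not tested. Of 24 listed enzymes abundant in hepatocytes, 18 were tested and 2 called (Ces3a and Ces1c), 4 with the block. The median log2 fold change of the 18 was 0.25, and 15 estimates were above 0 (83.3%, against 54.2% of all genes). The groups were apart for 4 of the 18, all higher (22.2%, against 24.2% of all genes in either direction). Summed values of the list were 2430 to 3138 in Control and 4359 to 8146 in Sox9cKO. Most of that rise came from Ces1c (means of 251 in Control and 2154 in Sox9cKO) and Sult1a1 (614 and 1329). The sums therefore do not describe the list as a whole, in which 3 of the 18 estimates were below 0. Cyp2e1, named after its values were seen, had 128, 31.6 and 40.3 in Control and 122, 55.8 and 31.7 in Sox9cKO, and Cyp2c29 likewise had 47.9, 7.42 and 11.5 and then 35.8, 26.5 and 6.79. Neither separated the groups. In bulk RNA, a change in the number of cells of a type and a change in RNA per cell cannot be told apart.

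Endothelial markers varied widely between libraries of a group. Their summed values were 13999, 44805 and 1929 in Control and 35498, 45790 and 7060 in Sox9cKO, higher in Sox9cKO at each replicate number. All 12 estimates were above 0 (against 54.2% of all genes), with a median of 1.09 on the log2 scale. With limma 0 were called (0 at an unadjusted p under 0.05, and 0 with edgeR). With the block 1 was called, Egfl7, higher (limma, adjusted p 0.0356). Cyp4b1, a P450 of fatty acids, followed the same order of libraries, with 380, 1417 and 63.4 in Control and 1043, 1524 and 263 in Sox9cKO. It was the 1 member of 123 (0.813%) to order all 6 libraries exactly as that sum does. That share was below the 1.06% of all tested genes, and Cyp4b1 was chosen for that order. Fmo1 had 75.7, 132 and 33.4 in Control and 150, 200 and 65.7 in Sox9cKO, a difference of like direction within each replicate number, and was called in limma with the block but not without it (adjusted p 0.0449 against 0.506). Stellate cell and fibroblast markers had sums of 3472 to 4241 in Control and 4207 to 5910 in Sox9cKO, with 0 of 12 called (0 at an unadjusted p under 0.05, and 0 with edgeR). Leukocyte markers summed to 1092 to 1263 and 1545 to 1852, with 1 of 7 tested called. That one, Csf1r, rose from 761 ± 48.9 to 1450 ± 186 (SD, n = 3) and made up most of the sum. The other 6 had estimates below 0, the median of the 7 was -0.69 on the log2 scale, and the block called Lyz2 lower (limma, adjusted p 0.0417). The part of these cells in the members' results was not tested.

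**Figure D5:**
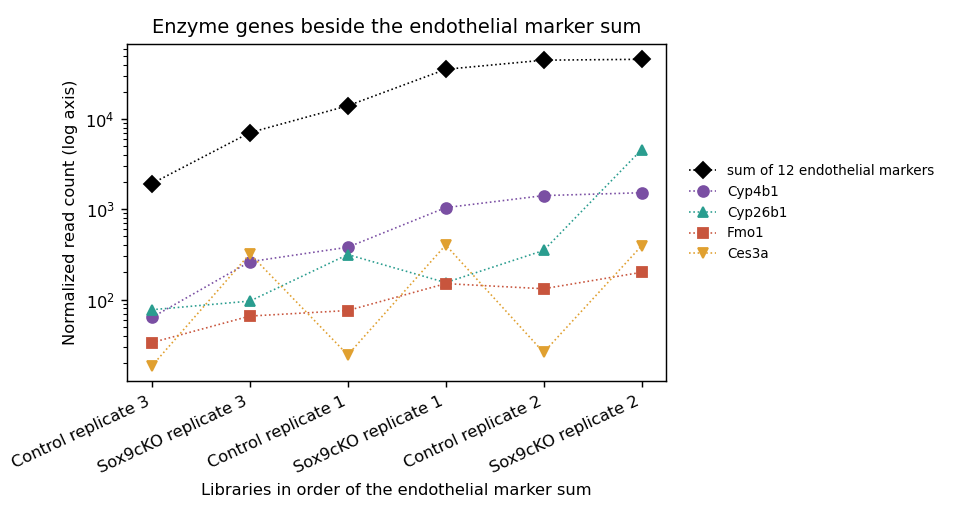
Normalized counts (log10 axis) of the summed endothelial markers and of Cyp4b1, Cyp26b1, Fmo1 and Ces3a, with the 6 libraries placed in the order of the endothelial sum. Cyp4b1 orders the 6 libraries as the endothelial sum does, from Control replicate 3 (63.4) to Sox9cKO replicate 2 (1524).

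The members also varied among libraries in a shared way. Sox9cKO replicate 2 was the lowest of its group in 65 of the 123 tested members (52.8%, against 28.5% of all genes), and Sox9cKO replicate 1 was the highest in 65 (52.8%, against 35.9%). The within-group SD of log2 values had a median of 0.420 over the members, 0.289 over all genes and 0.292 over the 13 called members. The 5 tested members most like Ces3a were Gstm1, Ugt1a1, Ces1c, Gstt2 and Ephx2, with Pearson correlations of log2 values of 0.992, 0.980, 0.977, 0.971 and 0.967 over the 6 samples, which include the difference between the groups.

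Of the 13 called members, Ces3a, Ugt1a1, Ces1c and Cyp2d22 kept their call in all 18 other fits, of which 6 left out 1 library each. The other 9 lost it in at least 1 of those 6. Without Control replicate 1, 8 calls were lost (Ces1d, Ces2g, Cyp4v3, Ephx2, Fmo2, Gstm1, Ugt2b35 and Ugt8a, limma, adjusted p 0.0575 to 0.138), and without Control replicate 3 the same genes except Gstm1 (0.0516 to 0.128). Without Control replicate 2, Ces2g, Ephx2, Ugt2b35 and Ugt8a lost theirs (limma, adjusted p 0.0516 to 0.0691). Without Sox9cKO replicate 1, Ces2g, Fmo2, Gstp3, Ugt2b35 and Ugt8a did so (limma, adjusted p 0.0523 to 0.0898), and without Sox9cKO replicate 2, Ces2g, Cyp4v3 and Fmo2 (0.0675 to 0.0964). Without Sox9cKO replicate 3, the calls of Ces2g, Cyp4v3, Ephx2, Fmo2, Ugt2b35 and Ugt8a were lost (limma, adjusted p 0.0525 to 0.0918). With the difference in Xist as a term of the limma fit, 10 members were called: Ces2g, Fmo2, Ugt2b35 and Ugt8a lost their call (adjusted p 0.0842, 0.0534, 0.0529 and 0.0734) and Aldh1a2 gained it. None of the 13 changed sign in any of the 18 fits.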

How the data were processed

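The authors deposited 1 table of normalized counts per gene, a signal that is read counts divided by a size factor per library, as the deposited values show. DESeq2 1.36.0 and build GRCm39 are named per the submitters' processing notes. Libraries were made per the labels' protocols from total RNA after ribosomal RNA depletion, with a stranded kit and molecular identifiers. The aligner, the annotation and the use made of strand and identifiers are not given in the sources used here, so reads of overlapping, antisense and near-identical genes may be split uncertainly. Dividing each column by its smallest value above 0 gave whole reads for 100% of values (tolerance 0.001).

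Values were tested as log2(value + 1) with limma 3.58.1 in R 4.3.3 (lmFit, eBayes with intensity trend) for genes with a mean of at least 10, two-sided, with Benjamini-Hochberg adjustment over all genes tested and a threshold of 0.05. The script was tested on simulated data. Replicate numbers in the labels run from 1 to 3 in both groups, and same-numbered libraries deviated together from their group means (correlations across genes of 0.207, 0.472 and 0.542), so the fit with the number as a block is given where it changes the call of a named member or the count of a gene list. Settings changed one at a time were the pseudocount (0.1 or 5), the minimum mean (none or 50), the scaling (TMM or quantile normalization), the intensity trend (left out), the block and the tool (edgeR 4.0.16 and DESeq2 1.42.0 on recovered reads), and each library was left out in turn. A term for high or low Xist (above or below 1000) was added after seeing the data.

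The members and gene lists were chosen with earlier results of these data known. Members named with values were those called, the retinoid, receptor-induced and sterol lists, the most abundant and the smallest p of each family, and up to 10 uncalled members with a change of at least 1 on the log2 scale and no overlap. Not every member that this rule selects is described. Others (Ces1f, Cyp2c29, Cyp2e1, Cyp4b1, Fmo1, Gstm2, Gstm5, Gstt2, Hnf4a, Por, Alb, Otc, Egfl7, Lyz2, Tgm2, Rarres2, Fabp5, Rarb) were chosen after their values were seen. Libraries of a group differed by more than sampling noise. Exon lengths and shared stretches came from GENCODE M21 on GRCm38, which matched 183 of 184 members, and gene order and promoter windows from RefSeq. Apart from the promoter windows, given on their own build, no gene coordinates are printed, since the builds differ.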

Additional observations from a re-analysis of the deposited data

How the results depend on the processing

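The 13 called members kept their sign in all 18 alternatives, and 4 kept their call in all of them. The replicate block, which pairs same-numbered libraries, gave 1381 genes and 24 members (20 higher), and all 13 calls remained; for the other named members it changed no call beyond those given with their values. edgeR with the replicate block gave 1160 genes and 15 members higher. DESeq2 gave 1214 genes and 27 members, 23 higher. Without the intensity trend 2 members were called lower, as with the Xist term (2). Leaving out 1 library at a time gave 200 to 389 genes, 5 to 15 members, 4 to 12 higher and 1 to 3 lower. Fewer samples enter those fits; the cause of the other differences was not tested. Gstp3 was not tested at a minimum mean of 50. Sox9 was called in all 18. With 3 libraries a group, and within-group spread larger for members than for all genes, smaller changes were often not detectable, and members at low counts have understated fold changes.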
